A study of Mus musculus with 6 samples.

Results

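Among the targets of Ras-ERK signalling, 10 mouse genes that feed back on the pathway or report its output were followed across the 6 arrays of this series: the phosphatases Dusp1, Dusp4 and Dusp6, the Sprouty genes Spry1, Spry2 and Spry4, the ETS factors Etv4 and Etv5, and Plaur and Phlda1. They were chosen as known feedback or output genes of the pathway, and every probe set that the platform annotation maps to one of them was taken. On these arrays a probe set, made of several short oligonucleotides, gives 1 signal. Most probe sets were annotated with 1 gene, while 396 carried several gene symbols. Of the 10 genes, 6 had a probe set (Dusp1, Dusp6, Spry4, Etv4, Plaur and Phlda1), of 8251 named genes on the array. Dusp4, Spry1, Spry2 and Etv5 had none and were dropped. Dusp6 and Etv4 were each read by 2 probe sets, which makes 8 in all, and 7 of these were bright enough to be tested.

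The cells were NIH3T3 fibroblasts, an immortalised mouse line, in a derivative labelled 35/1-22 that carries c-myc and Ha-ras under a promoter of the Tet-off type, which is silent while doxycycline is present. All groups also made IRF-1hER, an IRF-1 fusion that estradiol activates, at all times, and all were grown in DMEM with 10% FCS. The estradiol group (2 arrays) had no doxycycline and received estradiol for 48 h at 1 mM as labelled. The withdrawal group (2 arrays) had neither agent, and the doxycycline group (2 arrays) had 2 µg/ml doxycycline, with the oncogenes off. RNA came from an RNeasy kit in replicate 1 and from TRIzol in replicate 2 of every group. One doxycycline array, replicate 2, is titled with estradiol although its treatment field gives doxycycline only. Values without this array are given for the members and for some of the leading genes of the pathway lists.

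The small GTPase Ras activates the kinases Raf, MEK and ERK in turn, and ERK switches on genes that restrain the same cascade. Dusp6 encodes a cytoplasmic phosphatase that removes the activating phosphates of ERK, Dusp1 a nuclear phosphatase that acts on ERK, p38 and JNK, and the Sprouty proteins dampen signalling from growth factor receptors to Ras. Etv4 is a transcription factor of the PEA3 branch of the ETS family that ERK signalling induces, Plaur encodes the urokinase receptor of the cell surface, and Phlda1 encodes a pleckstrin homology domain protein. In fibroblasts, serum and oncogenic Ras are both known to induce genes of this kind.

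RefSeq promoter windows of GRCm38.p6, 250 bases before to 50 after the gene start, were matched for 3 of the 6 genes, Plaur, Dusp6 and Dusp1, and all 3 are shown; windows of Spry4, Etv4 and Phlda1 were not used here. Plaur and Dusp6 are the 2 members whose arrays without doxycycline all lay above those with it. The same held for 13.5% of all tested probe sets. The arrays of Dusp1 overlapped. The windows lie at chr7:24462233-24462532 on the plus strand (Plaur), chr10:99262981-99263280 on the plus strand (Dusp6) and chr17:26508423-26508722 on the minus strand (Dusp1). Capitals mark matches, on either strand, to the AP-1 motif TGANTCA, the CRE TGACGTCA, its core TGACG, the ETS motif CCGGAAGT or the CArG box of SRF.
Plaur: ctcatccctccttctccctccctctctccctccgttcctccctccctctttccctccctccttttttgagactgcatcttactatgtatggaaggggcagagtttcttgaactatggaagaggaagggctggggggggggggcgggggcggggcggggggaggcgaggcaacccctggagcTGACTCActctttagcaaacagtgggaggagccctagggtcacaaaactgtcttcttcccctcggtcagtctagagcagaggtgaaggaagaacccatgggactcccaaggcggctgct
Dusp6: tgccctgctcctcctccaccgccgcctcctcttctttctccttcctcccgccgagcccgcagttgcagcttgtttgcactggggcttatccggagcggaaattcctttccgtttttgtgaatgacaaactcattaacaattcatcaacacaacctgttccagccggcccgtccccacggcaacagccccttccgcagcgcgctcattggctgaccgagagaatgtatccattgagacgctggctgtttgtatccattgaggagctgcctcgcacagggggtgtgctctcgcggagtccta
Dusp1: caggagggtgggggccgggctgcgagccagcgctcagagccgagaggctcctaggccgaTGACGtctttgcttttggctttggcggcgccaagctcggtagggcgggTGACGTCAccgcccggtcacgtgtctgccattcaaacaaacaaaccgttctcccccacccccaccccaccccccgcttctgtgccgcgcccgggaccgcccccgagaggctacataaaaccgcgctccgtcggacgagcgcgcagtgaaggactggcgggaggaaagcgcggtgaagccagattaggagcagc
The Plaur window held 1 AP-1 match, whose first base lay at -69 from the start. The AP-1 motif was found in 7.81% of 32851 RefSeq windows of this length. In the Dusp1 window there was 1 full CRE, with its first base at -143, found in 1.79% of windows, and a further TGACG at -191. The core motif, which the full one contains on both strands, occurred in 20.8% of windows. None of these motifs was spelled out in the Dusp6 window, nor an ETS match (3.89% of all windows) or a CArG box (1.63%) in any of the 3. A match describes the letters only.

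Similarity between arrays departed from the labels. Of 7453 tested probe sets, 16 differed at least 2-fold between the arrays labelled estradiol replicate 1 and withdrawal replicate 1, against 250 between the estradiol arrays, 920 between the withdrawal arrays and 283 between the doxycycline arrays. The array labelled withdrawal replicate 2 differed from doxycycline replicate 1 in 324. Myc was read by 1 probe set, at 31.9 and 28.1 with estradiol, 25.7 and 118 after withdrawal and 62.3 and 49.6 with doxycycline, so the array labelled withdrawal replicate 2 was the highest and the other 3 arrays without doxycycline lay below both with it. Whether this mouse probe set reads the transgene is not stated, and no probe set carried the symbol Hras. Of 11 fibroblast markers on the array, 9 were bright enough to be tested, among them Col1a1 at 4211 to 6870, while Vim stayed at 5.90 to 40.7. Their summed signal was 20445 and 15683 with estradiol, 20429 and 24657 after withdrawal and 27454 and 25591 with doxycycline. Tested markers of other cells numbered 3 of 9 for leukocytes, 2 of 7 for epithelium, 0 of 5 for endothelium, 1 of 3 for adipocytes and 3 of 5 for skeletal muscle, and the defining leukocyte marker Ptprc was at 1.70 to 7.40. The 3 tested leukocyte markers were Cd14 at 257 to 379, Csf1r at 81.8 to 155 and Cd68 at 70.1 to 132.

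Dusp6 was brighter on each of the 4 arrays without doxycycline than on either array with it. Its signals were 427 and 355 in the estradiol group and 402 and 238 in the withdrawal group, against 207 and 141 in the doxycycline group. The groups without doxycycline did not overlap with the doxycycline group, and the array labelled withdrawal replicate 2 lay nearest to it. Means were 391 ± 50.5 with estradiol, 320 ± 117 after withdrawal and 174 ± 46.9 with doxycycline (SD, n = 2 each). Log2 fold changes are given on the scale of log2(signal + 32), where those of dim probe sets come out too small. The 4 arrays without doxycycline stood 0.90 above the 2 with it (SE 0.28, 95% interval 0.25 to 1.55), with limma's adjusted p of 0.355. That value was 1.07 without the array labelled withdrawal replicate 2 (limma adjusted p = 0.0599) and 0.67 without doxycycline replicate 2 (limma adjusted p = 0.954). Estradiol against doxycycline gave 1.05 (SE 0.33, 95% interval 0.30 to 1.81, limma adjusted p = 0.273) and withdrawal against doxycycline 0.75 (SE 0.33, limma adjusted p = 0.925), or 0.82 and 0.52 when doxycycline replicate 2 was left out. Between estradiol and withdrawal, which overlapped, the value was 0.30 (SE 0.33, 95% interval -0.45 to 1.06, limma adjusted p = 1.00). None of these passed the threshold of 0.05. Estradiol replicate 1 and withdrawal replicate 1 were nearly alike, yet limma took them as independent. The SE and interval for the 4 arrays against the 2 may therefore be too small. A second Dusp6 probe set was dimmer, at 8.10 and 4.10 with estradiol, 6.90 and 5.0 after withdrawal and 3.30 and 1.30 with doxycycline, all below the filter at a signal of about 29.0.

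Dusp1, the phosphatase with the wider range of substrates, differed more between replicates than between groups. Its signals were 188 and 194 with estradiol, 177 and 342 after withdrawal and 144 and 347 with doxycycline. The replicate 2 arrays of withdrawal and doxycycline, both extracted with TRIzol, were the 2 highest, while the TRIzol array of the estradiol group lay beside the RNeasy arrays, and all groups overlapped. The part of the extraction method in this was not tested. Without against with doxycycline the log2 fold change was -0.05 (SE 0.36, 95% interval -0.89 to 0.79, limma adjusted p = 0.971). Estradiol against withdrawal gave -0.33 (SE 0.42, 95% interval -1.29 to 0.64, limma adjusted p = 1.00). Leaving out 1 array turned the sign in every comparison, for example to 0.50 without against with doxycycline once the doxycycline array of replicate 2 was left out.

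Spry4, the one Sprouty gene on the array, had values opposite in sign to those of Dusp6, with intervals that span 0. Signals were 62.4 and 97.0 with estradiol and 91.7 and 85.1 after withdrawal, against 92.8 and 132 with doxycycline. The highest array was the doxycycline array of replicate 2, and doxycycline replicate 1 lay among the arrays without doxycycline. Means were 79.7 ± 24.5 with estradiol, 88.4 ± 4.67 after withdrawal and 112 ± 27.9 with doxycycline (SD, n = 2 each). Without against with doxycycline the log2 fold change was -0.31 (SE 0.24, 95% interval -0.86 to 0.24, limma adjusted p = 0.609), and it was -0.11 without the doxycycline array of replicate 2. Estradiol against withdrawal gave -0.13 (SE 0.28, 95% interval -0.76 to 0.51, limma adjusted p = 1.00).

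The 2 probe sets of Etv4 disagreed. The brighter one had 153 and 125 with estradiol, 146 and 166 after withdrawal and 178 and 166 with doxycycline. These 6 values lay close together, with the estradiol arrays below both doxycycline arrays. The other had 114 and 119 with estradiol, 93.9 and 55.0 after withdrawal and 64.2 and 59.1 with doxycycline. Here the estradiol arrays were the 2 highest, withdrawal replicate 1 came next and the array labelled withdrawal replicate 2 was the lowest of all. For estradiol against doxycycline the brighter probe set gave -0.26 (SE 0.25, limma adjusted p = 0.676) and the other 0.67 (SE 0.27, 95% interval 0.05 to 1.28, limma adjusted p = 0.338). When doxycycline replicate 2 was left out these were -0.30 and 0.63. Estradiol against withdrawal gave -0.14 (SE 0.25) and 0.51 (SE 0.27), both with a limma adjusted p of 1.00. Across the 6 arrays the 2 probe sets correlated at r = -0.82, and their group means ran in opposite orders. Which of them reads Etv4 better was not tested, and brightness does not settle it.

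Plaur, the urokinase receptor gene, was the member whose 3 groups were fully apart. Its signals were 115 and 114 with estradiol, 72.5 and 65.2 after withdrawal and 26.8 and 44.4 with doxycycline. Every estradiol array lay above every withdrawal array, and every withdrawal array above both doxycycline arrays. Means were 114 ± 0.771 with estradiol, 68.8 ± 5.16 after withdrawal and 35.6 ± 12.4 with doxycycline (SD, n = 2 each). The ratio of mean signals was 3.21 for estradiol over doxycycline, 1.93 for withdrawal over doxycycline and 1.66 for estradiol over withdrawal. On the log2 scale estradiol against doxycycline gave 1.13 (SE 0.25, 95% interval 0.55 to 1.70, limma adjusted p = 0.255) and withdrawal against doxycycline 0.59 (SE 0.25, 95% interval 0.01 to 1.16, limma adjusted p = 0.925), or 1.32 and 0.78 when doxycycline replicate 2 was left out. Estradiol against withdrawal gave 0.54 (SE 0.25, 95% interval -0.04 to 1.11, limma adjusted p = 1.00). The 4 arrays without doxycycline stood 0.86 above the 2 with it (SE 0.22, limma adjusted p = 0.354), or 0.88 when the array labelled withdrawal replicate 2 was left out and 1.05 when doxycycline replicate 2 was. No comparison of Plaur passed. Its doxycycline signals lie near the filter at about 29.0, and with a pseudocount of 16 or 64 the estradiol against doxycycline value was 1.36 or 0.85.

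Phlda1 varied more between replicates than between groups. Signals were 101 and 195 with estradiol, 103 and 316 after withdrawal and 150 and 153 with doxycycline. The array labelled withdrawal replicate 2 was the highest by far, and the replicate 1 arrays of estradiol and withdrawal were the lowest. Without against with doxycycline the log2 fold change was 0.08 (SE 0.39, 95% interval -0.83 to 0.98, limma adjusted p = 0.959), and it was -0.26 without the array labelled withdrawal replicate 2. Estradiol against withdrawal gave -0.32 (SE 0.46, 95% interval -1.37 to 0.73, limma adjusted p = 1.00), and 0.36 without that array. When doxycycline replicate 2 was left out, Phlda1 gave 0.09 without against with doxycycline.

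**Figure D1:**
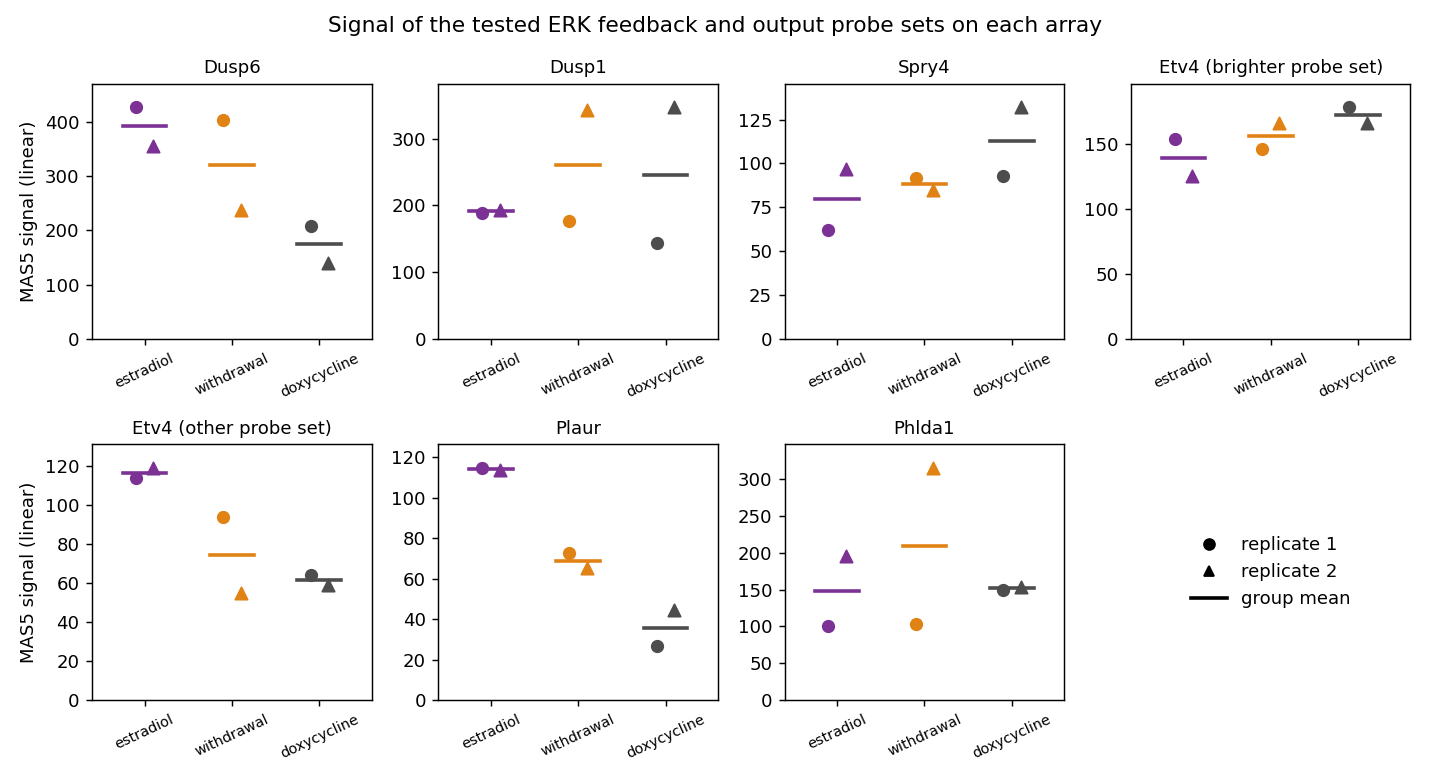
MAS5 signal (linear axis from 0) of the 7 tested probe sets, a panel each, with circles for replicate 1, triangles for replicate 2 and a bar for the mean of the 2 arrays of a group. Plaur separates all 3 groups, Dusp6 separates both groups without doxycycline (238 to 427) from doxycycline (207 and 141), and Dusp1 and Phlda1 spread most within a group.

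The first comparison, withdrawal against doxycycline, asks what the oncogenes change, although doxycycline itself differs too. Limma called 0 of 7453 probe sets (0% of all, 4.37% at an unadjusted p under 0.05) and 0 of the 7 member probe sets. Plaur was the one member at an unadjusted p under 0.05 and higher, against 2.07% of all probe sets in that direction, and 0 members were lower by that rule, against 2.31%. Groups did not overlap and were higher after withdrawal for Dusp6 and Plaur, against 16.9% of all probe sets, and lower for Spry4, against 15.0%. The median log2 fold change was 0.16 over the 7 member probe sets and 0.01 over all tested.

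For estradiol against withdrawal, which asks what active IRF-1 changes while the oncogenes are on, limma again called 0 of 7453 (0%, and 0.698% at an unadjusted p under 0.05). No member reached an unadjusted p under 0.05. Plaur and the other Etv4 probe set did not overlap between the groups and were higher with estradiol, against 11.6% of all probe sets, and 0 members were lower without overlap, against 10.3%. The member median was -0.13, against 0.01 over all tested. All cells carry the fusion, so the action of IRF-1 and any other action of estradiol cannot be told apart.

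In the comparison of estradiol with doxycycline, limma called 0 of 7453 (0%, and 14.0% at an unadjusted p under 0.05) and 0 members. Dusp6, Plaur and the other Etv4 probe set had an unadjusted p under 0.05 and were higher, against 8.31% of all probe sets, and 0 members were lower, against 5.66%. The same 3 had groups without overlap, against 27.0% of all in that direction, and the brighter Etv4 probe set was lower without overlap, against 24.7%. The member median was -0.08 and that of all tested 0.00. The adjusted p of Plaur, 0.255 with limma, equalled the smallest of any probe set in this comparison, a value shared by several others. Ccnd1, Epha2, Pdgfra, Fgf7 and Dusp9 were among those that shared it. Of all tested probe sets 2.67% had a higher log2 fold change than Plaur here.

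Taking the 4 arrays without doxycycline against the 2 with it, limma called 0 of 7453 (0%, and 12.4% at an unadjusted p under 0.05). Dusp6 and Plaur had an unadjusted p under 0.05 and were higher, against 7.14% of all probe sets, and 0 members were lower, against 5.22%. These 2 of 7 were also the ones whose arrays did not overlap and were higher, against 13.5% of all probe sets. Of all tested probe sets 2.36% had a higher log2 fold change than Dusp6 and 2.82% a higher one than Plaur. The other 5 member probe sets lay between -0.31 and 0.41 and overlapped. Leaving out an array can only add to the probe sets without overlap. Without the array labelled withdrawal replicate 2 the other Etv4 probe set joined Dusp6 and Plaur, against 24.5% of all probe sets, and without the doxycycline array of replicate 2 Dusp1 did, against 24.1%. No member joined without estradiol replicate 1 or replicate 2 (14.9% of all probe sets either way), withdrawal replicate 1 (15.1%) or doxycycline replicate 1 (26.0%). These comparisons share arrays, so their values for a gene are not independent of each other.

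**Figure D2:**
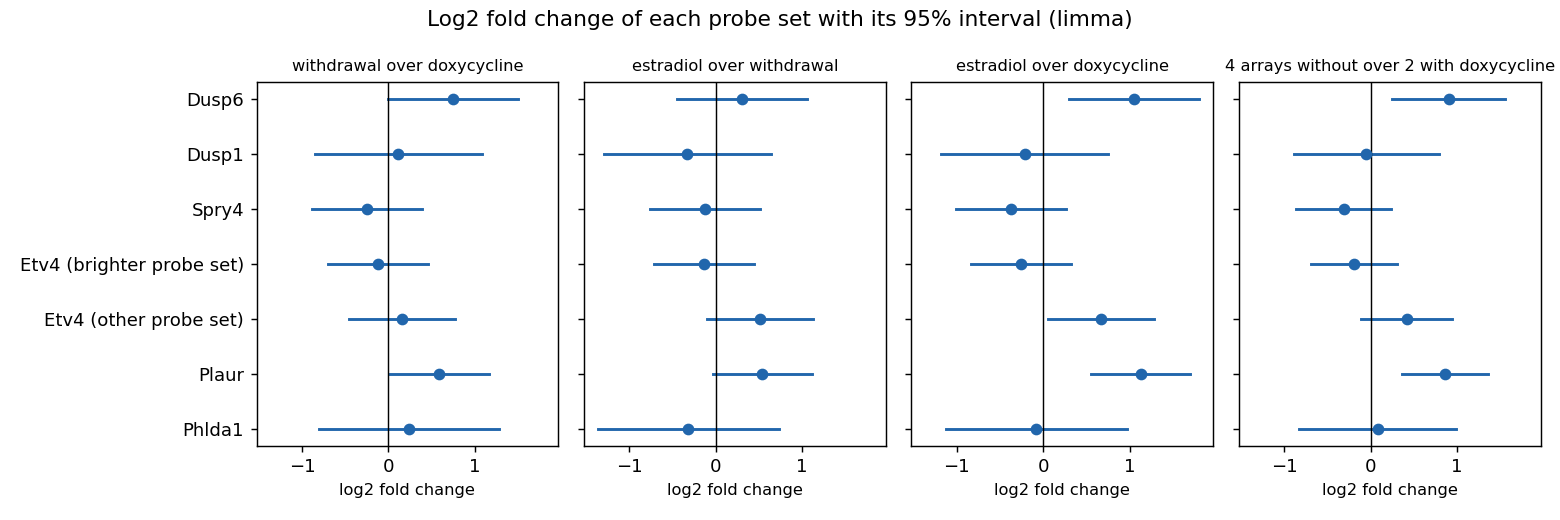
Log2 fold change (points) with 95% intervals from limma (lines) of the 7 tested probe sets in the 4 comparisons, 1 panel each. For estradiol over doxycycline the intervals of Dusp6 (0.30 to 1.81), Plaur (0.55 to 1.70) and the other Etv4 probe set (0.05 to 1.28) lie above 0. So do that of Plaur for withdrawal over doxycycline and those of Dusp6 and Plaur for the 4 arrays without over the 2 with doxycycline. No interval excludes 0 for estradiol over withdrawal.

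**Figure D3:**
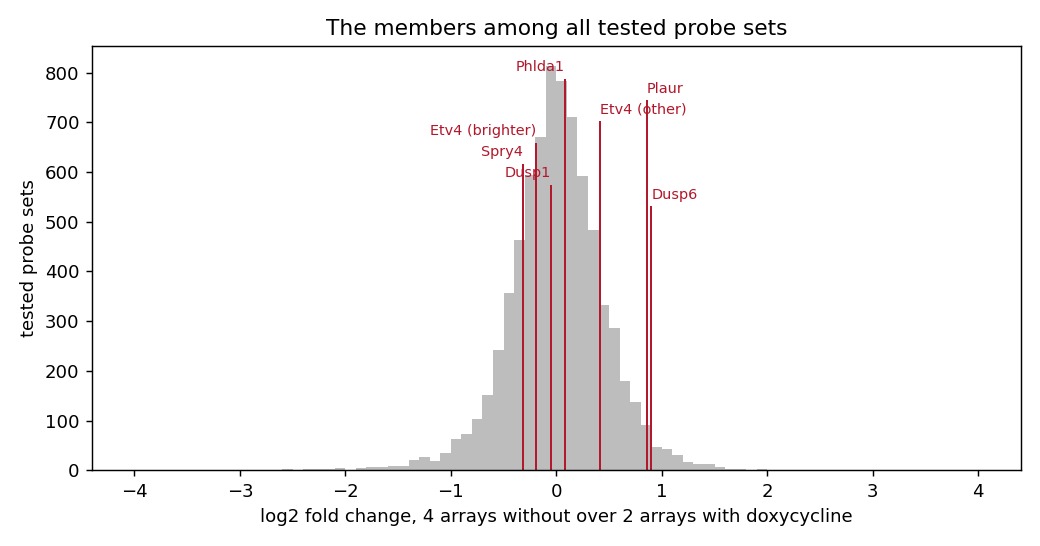
Number of tested probe sets (y axis) by log2 fold change of the 4 arrays without over the 2 arrays with doxycycline (x axis), with a red line at each member probe set. Dusp6 at 0.90 and Plaur at 0.86 stand in the upper tail, and the other 5 lie between -0.31 and 0.41.

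Split by replicate number, Dusp6 gave equal values without against with doxycycline, where estradiol and withdrawal are averaged. Its log2 fold change was 0.90 in replicate 1 and 0.90 in replicate 2. The parts were less alike, at 0.86 and 0.64 for withdrawal against doxycycline and 0.94 and 1.16 for estradiol against doxycycline. Without against with doxycycline, Plaur gave 1.08 and 0.64. The other Etv4 probe set gave 0.50 and 0.33, the brighter one -0.21 and -0.17 and Spry4 -0.21 and -0.42. Dusp1, at 0.29 and -0.39, and Phlda1, at -0.45 and 0.60, changed sign between the replicate numbers. For estradiol against withdrawal, it was Plaur that gave like values, 0.49 and 0.59. Its replicate 1 difference stands between 2 arrays of which only 16 probe sets differed at least 2-fold. Dusp6 gave 0.08 and 0.52 there, the other Etv4 probe set 0.22 and 0.80, and Phlda1 -0.02 and -0.62. Dusp1, at 0.07 and -0.73, Spry4, at -0.39 and 0.14, and the brighter Etv4 probe set, at 0.06 and -0.33, changed sign between the replicate numbers.

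**Figure D4:**
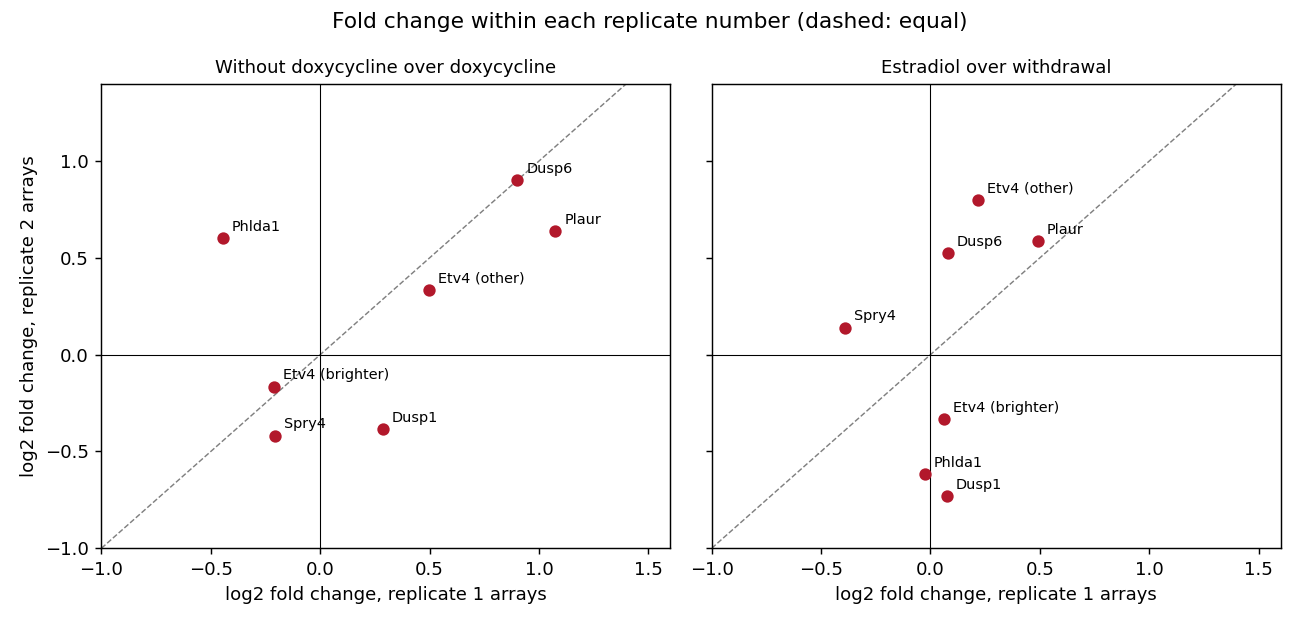
Log2 fold change in the replicate 1 arrays (x axis) and the replicate 2 arrays (y axis) for the 7 tested probe sets, with a dashed line where both are equal. On the left (without over with doxycycline) Dusp6 lies on the line at 0.90, and on the right (estradiol over withdrawal) most points lie near 0 on the x axis, with Plaur at 0.49 and 0.59.

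By Pearson's r of log2 signal over the 6 arrays, the genes most like Dusp6, the member with the widest range, were Kif20a, a mitotic kinesin (r = 0.997), Rpl7l1 (r = 0.997) and Sptssa (r = 0.997). Kif20a had 388 and 320 with estradiol, 398 and 138 after withdrawal and 115 and 45.3 with doxycycline, the same order of arrays as Dusp6 but for the 2 highest. The genes most like Phlda1, next in range, were Retreg1 (r = 0.998), Ranbp9 (r = 0.994) and Gtf2a1 (r = 0.994). With 6 arrays in 3 groups such likeness was common: 347 probe sets had r above 0.9 with Dusp6 and 272 with Phlda1. Between members, Dusp6 correlated with Plaur at r = 0.79 and with Spry4 at r = -0.75 over the same 6 arrays, which share their groups and scaling.

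Other reported outputs of ERK signalling were mixed, as the members were. Doxycycline controls c-myc and Ha-ras together, so effects of Myc and of Ras on any of these genes cannot be told apart. Of 28 such genes on the array 22 were tested, and without against with doxycycline 0 were called by limma, 5 higher and 2 lower had an unadjusted p under 0.05 (7.14% and 5.22% of all probe sets), and 5 higher and 2 lower had arrays that did not overlap (13.5% and 11.3%). The median was 0.04, or -0.01 when estradiol replicate 1 and 0.20 when withdrawal replicate 2 was left out, and the genes ranged from -0.87 to 1.18. Epha2, an ephrin receptor, had 131 and 193 in the estradiol group and 133 and 112 after withdrawal, against 49.4 and 63.0 with doxycycline, a log2 fold change of 0.97 (SE 0.23). Ccnd1, the cyclin of entry into S phase, gave a log2 fold change of 1.18 (SE 0.31), Odc1, the first enzyme of polyamine synthesis, 0.80 (SE 0.26) and the angiogenic factor Vegfa -0.73 (SE 0.22). The limma adjusted p was 0.354 for Epha2, Ccnd1 and Vegfa and 0.355 for Odc1. When doxycycline replicate 2 was left out, Epha2 gave 1.08, Ccnd1 1.13, Odc1 0.64 and Vegfa -0.54. Each gene of this and the following lists was read from its brightest probe set, and any other probe set is not shown.

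Of the other phosphatases and Sprouty-related inhibitors 5 were on the array and tested, with 0 called by limma, 1 higher at an unadjusted p under 0.05 (7.14% of all probe sets) and a median of 0.10. Dusp9, a relative of Dusp6 that also acts on ERK, had 76.4 and 121 with estradiol and 76.9 and 17.1 after withdrawal, against 17.0 and 14.8 with doxycycline, a log2 fold change of 1.02 (SE 0.33, limma adjusted p = 0.355). Its array labelled withdrawal replicate 2 lay with the doxycycline arrays, and these 3 signals were below the filter at about 29.0, so that Dusp9 was tested through the arrays where it was high and its fold rests on dim signals. When that array, the low one among those without doxycycline, was left out, Dusp9 gave 1.31, and when doxycycline replicate 2 was left out 0.98. Spred2, which restrains Raf activation, gave 0.53 (SE 0.34), Dusp16 gave -0.26 and Dusp8 -0.12. The median was -0.27 without the doxycycline array of replicate 1, -0.16 without the estradiol array of replicate 2, up to 0.52 when another array was left out, and 0.53 with the lowest 60% of probe sets left out. Of 9 ETS factors on the array 6 were tested, with 0 called, 1 lower at an unadjusted p under 0.05 (5.22% of all probe sets) and a median of -0.09. That one was Elk1, a partner of SRF that ERK phosphorylates, at 52.9 and 59.8 with estradiol and 55.8 and 31.0 after withdrawal, against 111 and 85.6 with doxycycline, a log2 fold change of -0.68 (SE 0.23, limma adjusted p = 0.364), or -0.82 when doxycycline replicate 2 was left out. Gabpa gave 0.29, Erf, an ETS repressor that ERK inactivates, 0.24 and Ets1 -0.26. The ETS median turned positive without estradiol replicate 1 (0.05), withdrawal replicate 2 (0.01) or doxycycline replicate 1 (0.07), and with the lowest 60% of probe sets left out (0.13).

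The cascade itself showed a median of 0.01 over 18 tested genes of 22 on the array, with 9 above and 9 below 0, 0 called by limma and 1 in each direction at an unadjusted p under 0.05 (7.14% of all probe sets higher and 5.22% lower). The median was -0.12 when doxycycline replicate 1 was left out. Araf, a kinase of the Raf family, had 198 and 154 with estradiol and 199 and 107 after withdrawal, against 305 and 376 with doxycycline, a log2 fold change of -0.94 (SE 0.28, limma adjusted p = 0.354). Rasa1, which switches Ras off by speeding its GTP hydrolysis, had 97.1 and 189 with estradiol and 92.6 and 138 after withdrawal, against 48.1 and 69.9 with doxycycline, a log2 fold change of 0.80 (SE 0.29, limma adjusted p = 0.366). The ERK-activated kinases Mknk2 and Mknk1 gave 0.64 (SE 0.31) and -0.34. When doxycycline replicate 2 was left out, Araf gave -0.81, Rasa1 0.97 and Mknk2 0.27.

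Receptors and ligands upstream of Ras had values below 0 in 9 of 11 tested genes (20 on the array), with a median of -0.55, which ranged from -0.97 to -0.36 when 1 array was left out, beside 0.01 over all tested probe sets. Limma called 0, and 4 were lower at an unadjusted p under 0.05, against 5.22% of all probe sets. Fgf7, a growth factor of fibroblasts for epithelial cells, had 463 and 84.6 with estradiol and 437 and 501 after withdrawal, against 1434 and 790 with doxycycline, a log2 fold change of -1.66 (SE 0.53, limma adjusted p = 0.355). Pdgfra, a receptor for platelet-derived growth factor, had 617 and 360 with estradiol and 591 and 2138 in the withdrawal group, against 2587 and 1966 with doxycycline, a log2 fold change of -1.58 (SE 0.48, limma adjusted p = 0.354). The array labelled withdrawal replicate 2 was at the doxycycline level for Pdgfra, and when it was left out Pdgfra gave -2.03. Leaving out the array that differs from the others without doxycycline makes the value larger by itself. Fgfr2, a receptor for fibroblast growth factors, gave -1.39 (SE 0.48) and Igf1r, a receptor for insulin-like growth factors, -0.93 (SE 0.33), both with a limma adjusted p of 0.364. When doxycycline replicate 2 was left out, Fgf7 gave -2.08, Pdgfra -1.77, Fgfr2 -2.09 and Igf1r -0.97. The summed fibroblast markers given above were lower on the same 3 arrays that were low for Pdgfra, and their part in these values was not tested. In bulk RNA, fewer cells of a kind and less RNA per cell cannot be told apart.

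**Figure D5:**
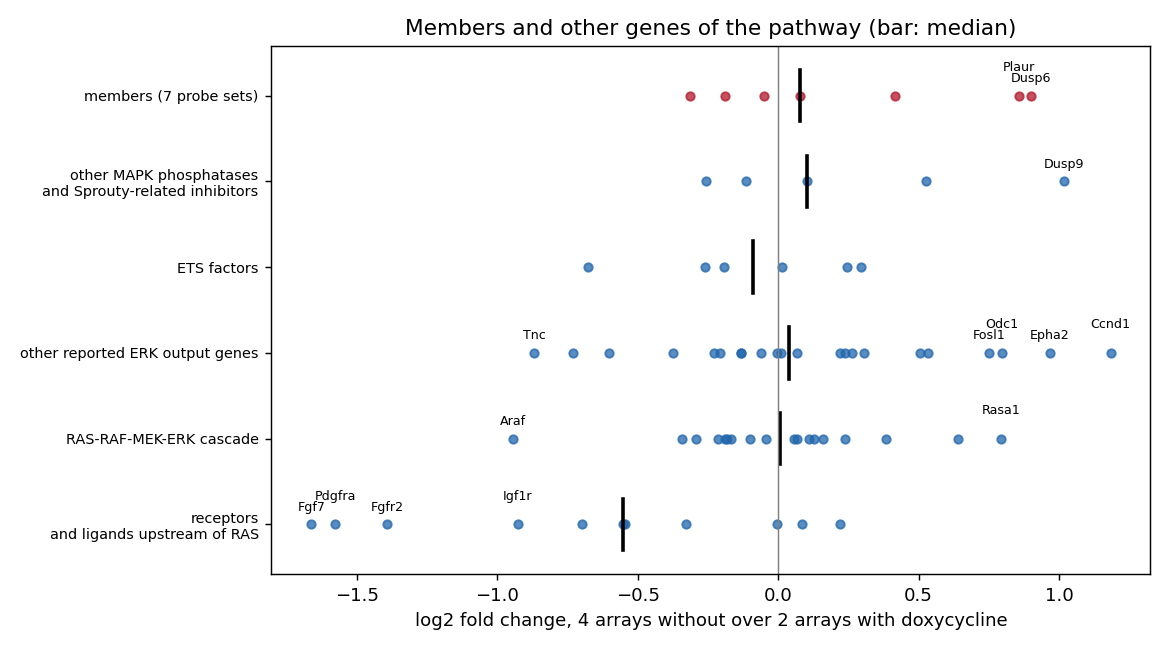
Log2 fold change of the 4 arrays without over the 2 arrays with doxycycline (x axis) for the member probe sets (red) and the tested genes of 5 pathway lists (blue), with a bar at each median and names where the size is at least 0.75. The medians lie between -0.09 and 0.10 except for receptors and ligands at -0.55.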

How the data were processed

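RNA of 6 samples was profiled on 1-colour Affymetrix arrays from 6 µg of total RNA each, per the labels' protocols. The authors deposited MAS5 signals, an intensity per probe set on a linear scale, per the submitters' processing notes; its version, settings and detection calls were not used here. The deposited intensities had a trimmed mean of 150 on every array. Gene names came from the platform annotation through Entrez identifiers, with 10833 probe sets naming 1 gene. No build was named for the array, and coordinates are those of the RefSeq promoter table.

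Arrays were scaled to a common trimmed mean and values taken as log2(signal + 32). The 66 controls were left out, as was the dimmest 40% of the others by their mean over all arrays, which kept 7453. Limma 3.58.1 in R 4.3.3 fitted 1 mean per group over all 6 arrays with an intensity trend, and two-sided p-values were adjusted by Benjamini-Hochberg over all 7453 with a threshold of 0.05. The procedure was tested on simulated data with independent noise on every array. These held neither extraction batches nor the likeness between arrays seen here, so the test does not cover them. Precision is limited by having 2 arrays per group. Whether replicates came from separate cultures is not labelled, so a p-value reflects only how these arrays scatter, possibly for technical reasons.

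Each replicate number had its own RNA extraction method per the labels, which pairs the arrays by batch. Deviations from group means correlated at 0.45 between estradiol and withdrawal, -0.03 between estradiol and doxycycline and -0.01 between withdrawal and doxycycline. The likeness of estradiol replicate 1 and withdrawal replicate 1 enters the value of 0.45, so it is no measure of the extraction batch. The members, lists and the rule for named genes (all members, up to 4 genes per list by unadjusted p, and the 3 genes most like the 2 members of widest range) were chosen with earlier results of these data known. The alternatives covered normalization, pseudocount, filter, trend, replicate block and leaving out each array.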

Additional observations from a re-analysis of the deposited data

How the results depend on the processing

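No member passed the limma threshold under any of the alternatives run. The smallest adjusted p was 0.0599, for Dusp6 without against with doxycycline and without the array labelled withdrawal replicate 2. With replicate as a block (the paired fit), which changed no call, limma called 0 probe sets in each of the 4 comparisons, as it did with quantile normalization, a pseudocount of 16 or 64, no filter, a filter at 60% and no intensity trend, and no member changed sign under those that kept it. The filter at 60% removed Plaur and the other Etv4 probe set, so neither has a value there. Leaving out 1 array, where the lone array of a group is assumed to vary like the other groups, gave 0 to 26 calls for withdrawal against doxycycline, 0 to 17 for estradiol against withdrawal, 0 to 133 for estradiol against doxycycline and 0 to 180 without against with doxycycline. The calls came without doxycycline replicate 1 (26 for withdrawal against doxycycline, 28 for estradiol against doxycycline and 35 without against with doxycycline), without withdrawal replicate 1 (17 for estradiol against withdrawal and 131 for estradiol against doxycycline) and without withdrawal replicate 2 (133 for estradiol against doxycycline and 180 without against with doxycycline).

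The signs of several members turned when 1 array was left out. Dusp1 ranged from -0.44 to 0.67 for withdrawal against doxycycline, from -0.75 to 0.091 for estradiol against withdrawal, from -0.77 to 0.34 for estradiol against doxycycline and from -0.60 to 0.50 without against with doxycycline. Phlda1 ranged in the same order from -0.44 to 0.92, from -1.0 to 0.36, from -0.47 to 0.31 and from -0.26 to 0.42. For estradiol against withdrawal Dusp6 ranged from -0.043 to 0.65 and Spry4 from -0.35 to 0.10, and the other Etv4 probe set ranged from -0.11 to 0.43 for withdrawal against doxycycline. Dusp6 stayed between 0.67 and 1.14 and Plaur between 0.67 and 1.05 without against with doxycycline. Reading Etv4 from its other probe set turned its sign in every comparison, to 0.16, 0.51, 0.67 and 0.41. Among the other pathway genes without against with doxycycline, Dusp8 turned to 0.035 without doxycycline replicate 2 (-0.27 to 0.035 over the arrays left out). Without withdrawal replicate 2, which was at the doxycycline level for both, Dusp9 gave 1.31 and Pdgfra -2.03. The causes were not tested, except that fewer arrays enter each such fit. When 1 array was left out, 2 to 3 members were higher without doxycycline and without overlap, against 14.9% to 26.0% of all probe sets. These alternatives were chosen after seeing the data, as were those of the pathway lists and genes. Dim signals limit Plaur and the second Dusp6 probe set.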
